A study of Mus musculus with 45 samples.

Results

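Genes of cytokine, Toll-like receptor (TLR) and NF-kB signalling were followed in the nucleus accumbens (NAC), part of the ventral striatum, of mice exposed to chronic intermittent ethanol (CIE) vapor. The set named 34 genes, out of 18193 genes with a probeset of their own on the array. Every probeset whose platform annotation gave one of the 34 symbols alone was taken, and each gene was represented by its probeset with the highest mean over all arrays. By this rule 32 of the 34 genes were measured, 16 of them by 1 probeset and 16 by several. Hmgb1, a nuclear protein that also acts as a danger signal, was on 5 probesets that carry other symbols as well. Nfkb1, the gene of the p50 subunit, had no probeset under this symbol. Neither was analysed for expression, and Hmgb1 entered only the search of upstream sequence below.

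All mice were adult male C57BL/6J. CIE mice spent 4 days in ethanol vapor at 16 h each day, then 7 days abstinent, over 4 cycles, and were primed before each cycle with ethanol at 1.6 g/kg and pyrazole, an inhibitor of alcohol dehydrogenase, at 1 mmol/kg. Ctrl mice were given saline with the same dose of pyrazole and breathed air, so that all 8 groups carried pyrazole. NAC tissue was collected at 0 h, 8 h and 72 h and at 7 d from the end of vapor, and RNA of 1 mouse was hybridized to each of 45 arrays, with 6 CIE and 6 Ctrl arrays at 0 h, 5 and 5 at 8 h, 5 and 6 at 72 h, and 6 and 6 at 7 d. Values are on the log2 scale, and a change is a difference of group means on that scale with its standard error (SE), each mouse counting once. P values come from a limma fit to all 45037 probesets and 45 arrays, adjusted by the Benjamini-Hochberg method over all probesets, and a gene passed at an adjusted p of 0.01 or less.

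IL-1, and microbial or danger signals read by most TLRs, converge through the adaptor MyD88, the kinase IRAK1 and the ubiquitin ligase TRAF6 on the IkB kinase. The cytokine TNF reaches the IkB kinase through its own receptor. This kinase marks the inhibitor IkB-alpha for destruction, which frees NF-kB dimers to enter the nucleus and switch on cytokines, adhesion molecules and their own inhibitors. In brain these receptors and ligands are best known from microglia, astrocytes and the vessel wall, and ethanol has long been studied as a trigger of the pathway.

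The tissue label was checked first. Of the 10 listed markers of medium spiny neurons, the main neuron of the NAC, 8 were measured, and the 8 lay above the array median in each of the 8 groups, with list means of 11.79 to 12.53 over the arrays. Array medians lay between 6.94 and 6.96. Of the markers of cortical pyramidal neurons 7 were measured, and they also lay above the array median in every group but Ctrl 72 h, where 4 did. A place above the median thus does not by itself tell the tissue. The cortical markers varied more among arrays of one group, from 7.03 to 9.63 in CIE mice at 7 d. Their mean change, CIE minus Ctrl, was 0.48 at 0 h and 0.68 at 72 h, and that of the medium spiny neuron markers was -0.24 at 0 h (range -0.41 to -0.10), with 0 markers of either list passing. The part of these shifts in the results was not tested. Lymphocyte, granulocyte and erythroid markers had 0 genes above the array median in every group. Microarrays have no count depth to report, and each group held 5 or 6 arrays. Ctrl 0 h replicate 20 fell outside the hybridization sets inferred from shared values, and Ctrl 7 d replicate 62 was the highest of its 6 arrays in 24 of the 32 genes. In bulk tissue, fewer cells of a type and less RNA per cell cannot be told apart.

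The pathway has a sequence of its own, the kappaB element that NF-kB dimers bind. The 250 bases upstream of the start sites of RefSeq genes (mouse assembly GRCm38.p6) were searched on both strands for the kappaB consensus, which is 10 letters long. Upstream sequence was at hand for 25 of the 34 genes. Of these, 7 (28%) held at least 1 match, beside 4.46% of all 27025 genes. The 7 were the cytokine Il6, the receptors Il1r1, Tlr2 and Tlr3, the subunit Nfkb2 and the inhibitors Nfkbia and Tnfaip3. They are shown because they are the members whose upstream sequence carries the element of the pathway, and capitals mark the match:
Il6: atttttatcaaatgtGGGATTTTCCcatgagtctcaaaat
Il1r1: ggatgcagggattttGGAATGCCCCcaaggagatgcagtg
Tlr2: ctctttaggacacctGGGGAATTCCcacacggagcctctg
Tlr3: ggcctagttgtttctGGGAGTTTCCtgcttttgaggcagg
Nfkb2: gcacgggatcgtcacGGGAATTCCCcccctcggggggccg
Tnfaip3: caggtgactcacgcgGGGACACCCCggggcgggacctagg
The windows lie at chr5:30013055-30013094 (plus strand) for Il6, chr1:40266339-40266378 (plus) for Il1r1, chr3:83841757-83841796 (minus) for Tlr2, chr8:45410567-45410606 (minus) for Tlr3, chr19:46304683-46304722 (plus) for Nfkb2 and chr10:19015511-19015550 (minus) for Tnfaip3, and each is printed 5′ to 3′ on the strand of its gene. In Il1r1 and Nfkbia the consensus reads on the opposite strand. Tlr2 and Nfkb2 also had a match shifted by 1 base from the one shown, and Nfkb2 and Tnfaip3 had further matches that are not shown. A gene with several start sites was searched at each, and Il1r1 and Tnfaip3 each had another start site with 0 matches. Of the 7 genes, Nfkbia was the one that passed a test of expression (in CIE mice over time), so its whole 250 bases are given (chr12:55492648-55492897, minus strand, ending at the base before the start site), with the match 20 to 29 bases before the start site in capitals:
Nfkbia: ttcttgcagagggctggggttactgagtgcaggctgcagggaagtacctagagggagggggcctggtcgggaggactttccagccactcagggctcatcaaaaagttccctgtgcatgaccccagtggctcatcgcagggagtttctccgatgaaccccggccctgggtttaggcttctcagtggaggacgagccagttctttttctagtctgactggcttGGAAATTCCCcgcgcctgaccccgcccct
A match of letters is a description and not a bound site. No upstream sequence was used for Ccl2, Ccl4, Ccl5, Tlr4, Tlr7, Cd14, Nfkb1, Relb and Vcam1.

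The adaptors, kinases and most NF-kB genes had values above the array median in every group, as did 5 of the 9 receptors, while the ligands other than Ccl5 had values below it. In each of the 8 groups, 13 of 32 genes had a mean above the array median, 2 did so in some groups and 17 in none; 11 were above it on all 45 arrays, Osmr on 41, Myd88 on 40, and 14 on 0 arrays. Over all genes at their brightest probeset, 61.6% had a mean above. The 13 were 3 of 4 cytokine receptors (Il6st, Osmr and Tnfrsf1a), 2 of 5 TLR genes (Tlr3 and the co-receptor Cd14), 3 of 3 adaptors and kinases (Myd88, Irak1 and Traf6), 4 of 5 NF-kB subunits and inhibitors (Nfkb2, Rela, Nfkbia and Tnfaip3) and 1 of 6 induced targets (Vcam1). Of the 9 ligands 0 reached the median in all groups, and Ccl5 did in 5. Means over the 45 arrays give each gene's position on its own probeset. For the ligands they were 5.97 for Tnf, 5.04 for Il1a, 5.36 for Il1b, 5.40 for Il1rn, 4.04 for Il6, 5.31 for Ccl2, 4.58 for Ccl3, 6.63 for Ccl4 and 7.09 for Ccl5. Receptor means were 6.64 for Il1r1, 9.71 for Il6st, 7.28 for Osmr, 8.75 for Tnfrsf1a, 6.00 for Tlr2, 7.66 for Tlr3, 4.51 for Tlr4, 5.96 for Tlr7 and 7.42 for Cd14. Downstream, Myd88, Irak1 and Traf6 stood at 7.10, 9.93 and 8.25, the subunits Nfkb2, Rela and Relb at 7.73, 9.28 and 6.53, and the inhibitors Nfkbia and Tnfaip3 at 11.86 and 7.72. Thus Relb was the one NF-kB gene under the median. The targets Icam1, Ptgs2, Lcn2 and Socs3 stood at 5.60, 6.15, 4.01 and 6.24, Tnfaip2 at 7.06 and Vcam1 at 9.18. A value below the median is not proof that a gene is silent, since probesets differ in how bright they are at the same RNA level, and the count fell from 13 to 8 with each gene's second brightest probeset where it has one.

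**Figure D1:**
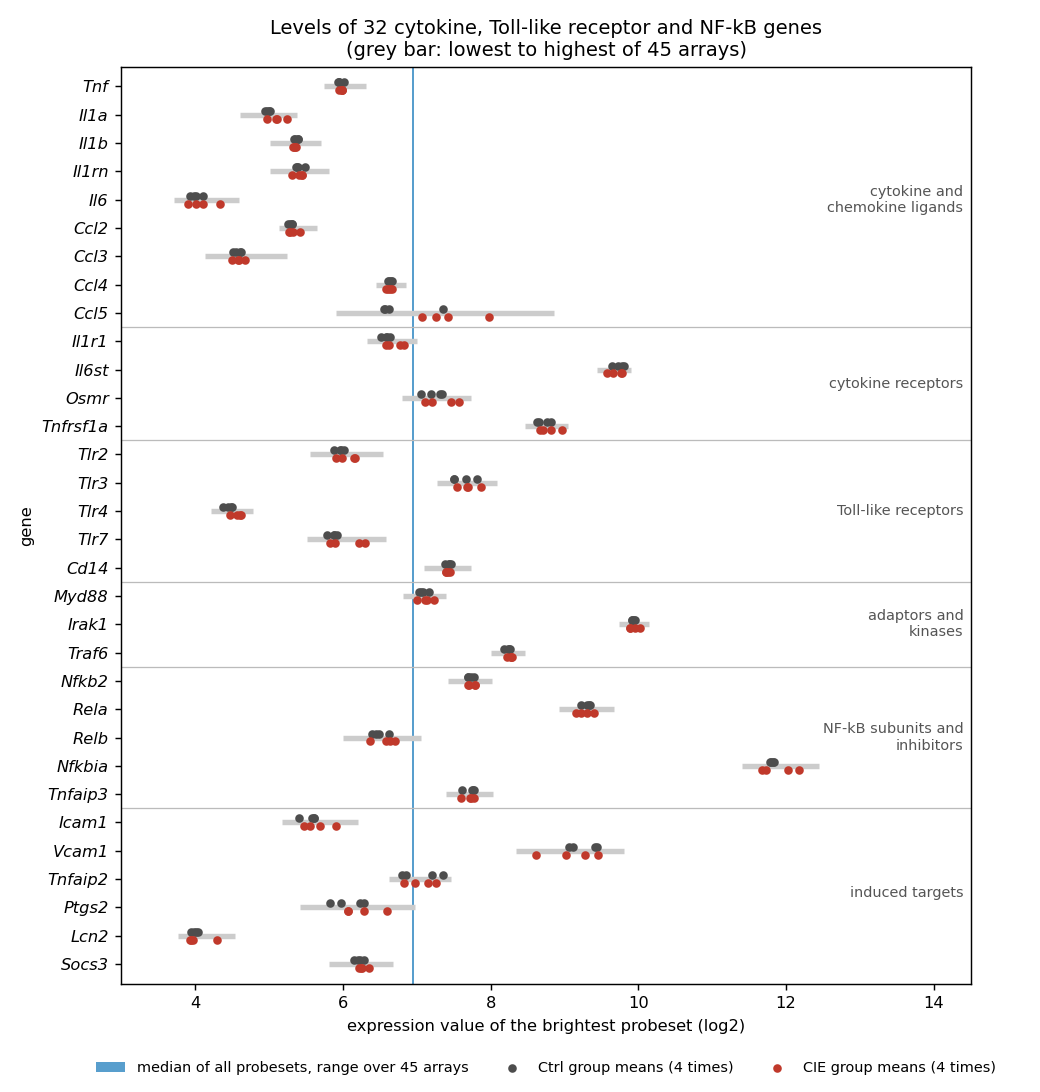
Expression value (log2, horizontal axis) of the brightest probeset of 32 genes, ordered by role, with the 4 Ctrl and the 4 CIE group means as points, the range over 45 arrays as grey bars, and the array medians (6.94 to 6.96) as a blue band. The ligands apart from Ccl5 lie left of the band in every group, and the adaptors and kinases lie right of it.

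Replicate arrays were close. The within-group SD had a median of 0.165 over the 32 genes, against 0.127 over all genes, and ranged from 0.0745 in Il6st to 0.663 in Ccl5. The 95th percentile over all genes was 0.298, and Ccl5 and Ptgs2 lay above it.

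The main question was whether CIE changed these genes at any time. At 0 h 1 of 32 genes passed, Vcam1, which was lower in CIE (1.93% of all genes passed). At 8 h 0 genes passed (0.0824% of all), at 72 h 0 genes (0%) and at 7 d 0 genes (0%). At an unadjusted p under 0.05 the counts were 6, 6, 3 and 1 of 32 at the 4 times, beside 18.4%, 8.04%, 4.56% and 1.97% of all genes. At the looser adjusted p of 0.05, 3 genes passed at 0 h (Vcam1, Tlr7 and Il6st; 4.81% of all genes). An F test over the 4 times passed 0 of 32 genes (1.03% of all), with the lowest adjusted p at 0.036 for Vcam1. The median change of the 32 genes at the 4 times in turn was 0.027, 0.087, 0.029 and 0.011, against 0.017, 0.004, 0.032 and -0.003 over all genes.

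**Figure D2:**
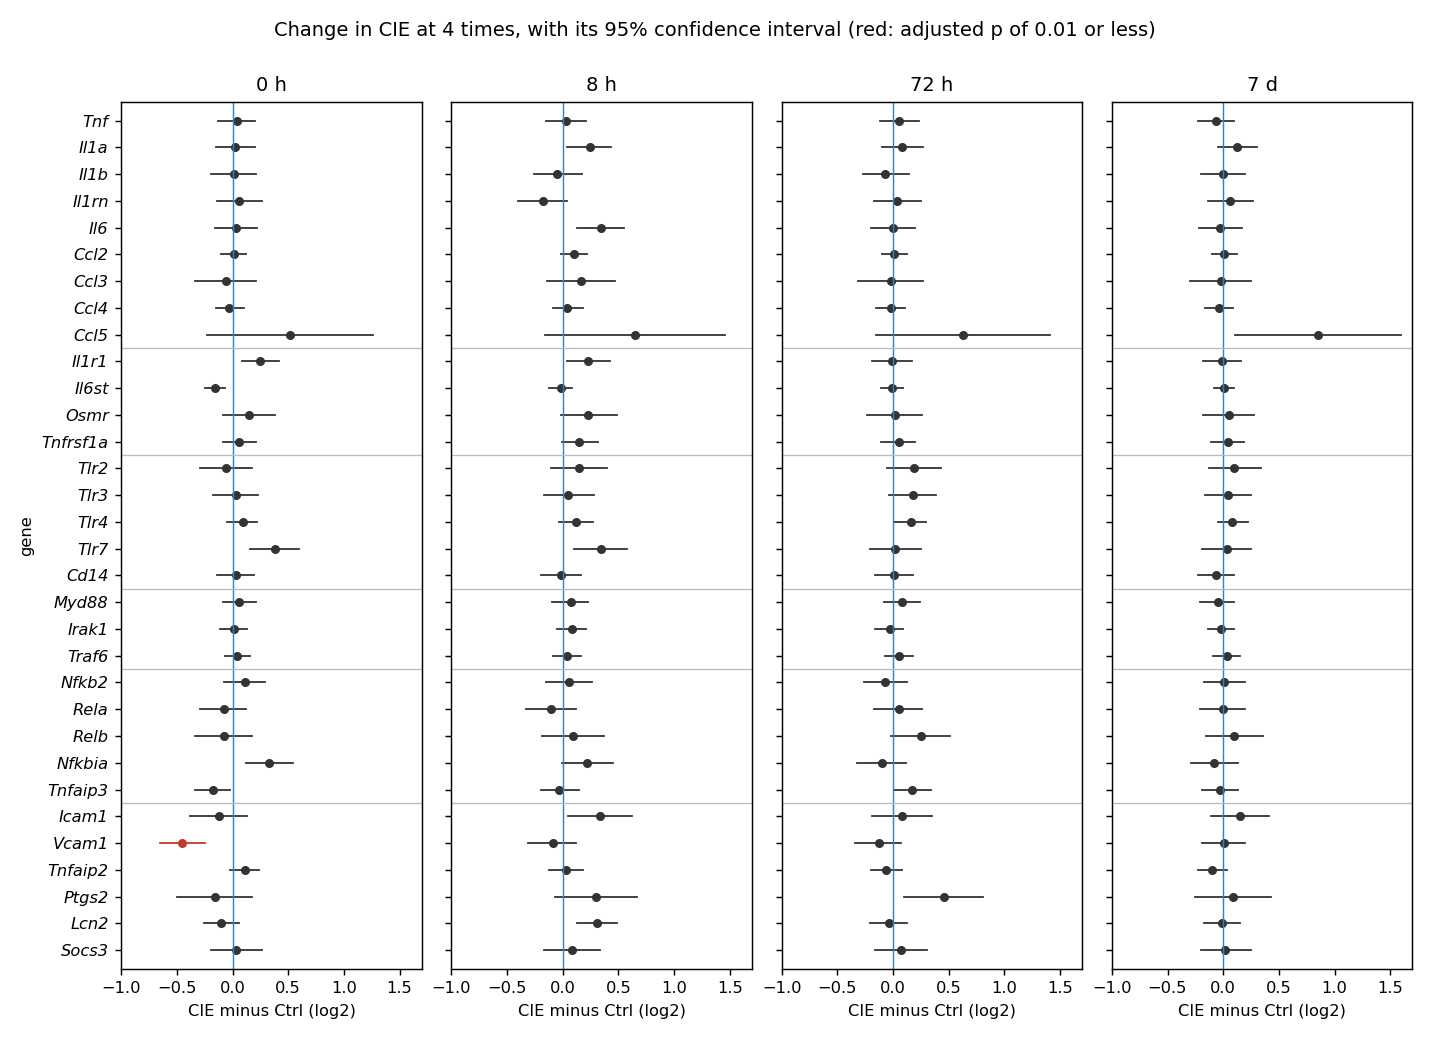
Change of 32 genes (CIE mean minus Ctrl mean, log2, horizontal axis) at each of 4 times, with the 95% confidence interval of the limma fit; Vcam1 at 0 h (-0.45) is the point in red, which marks an adjusted p of 0.01 or less. Intervals narrow enough to sit close to 0 are seen for Irak1 and Traf6, and the widest are those of Ccl5.

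Ligands came first in the order of signalling. None of 9 passed at any time. Tnf, the prototype inflammatory cytokine, had changes of 0.04, 0.03, 0.05 and -0.06 at the 4 times in turn (adjusted p 0.884 or more). Il1b, the secreted interleukin that the inflammasome activates, had changes of 0.01, -0.05, -0.07 and 0.00. Il1rn, the natural antagonist of the IL-1 receptor, had changes of 0.06, -0.18, 0.04 and 0.06. The chemokines Ccl2, Ccl3 and Ccl4, which draw monocytes and other leukocytes, ranged from -0.06 (Ccl3 at 0 h) to 0.16 (Ccl3 at 8 h).

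Il6, a cytokine of the acute response, and Il1a, an IL-1 released from damaged cells, were among the 5 genes with the smallest p at 8 h without passing. At 8 h the Ctrl values of Il6 were 3.71, 3.98, 4.04, 4.07 and 4.23, while the CIE values were 4.15, 4.23, 4.31, 4.43 and 4.59. Most CIE arrays were above the Ctrl arrays but the groups overlapped, and all values were far below the array median. The change was 0.34 (SE 0.104, adjusted p 0.206). The change of Il1a was 0.24 at 8 h (SE 0.095, adjusted p 0.477) and 0.12 at 7 d (SE 0.0868, adjusted p 1).

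Ccl5, a chemokine for T cells, was the most variable of the 32. It had the highest change at each of the 4 times and is described at all of them, a choice made after its values were seen. At 7 d Ctrl arrays ran from 6.07 to 7.36 with a median of 6.45, and CIE arrays from 6.36 to 8.39 with a median of 7.51. At 0 h Ctrl ran from 5.91 to 8.77 (median 6.23) and CIE from 6.21 to 8.06 (median 7.08). The groups overlapped at every time, and 1 Ctrl array stood far above the other 5 at 0 h. Changes were 0.52 (SE 0.367, adjusted p 0.527) at 0 h and 0.65 (SE 0.402, adjusted p 0.8) at 8 h. They were 0.63 (SE 0.385, adjusted p 0.741) at 72 h and 0.85 (SE 0.367, adjusted p 1) at 7 d. Without the high Ctrl array, replicate 20, the change at 0 h was 0.96 (adjusted p 0.0802), and with the hybridization sets as a block 0.99 (adjusted p 0.115). Without CIE replicate 67 it was 0.32 (adjusted p 0.79). The change at 8 h was 0.43 without CIE replicate 25 (adjusted p 0.892), and that at 72 h was 0.41 without CIE replicate 63 (adjusted p 0.827). Ctrl 0 h replicate 20 also had the highest mean of the 5 measured lymphocyte markers at 0 h, 5.64 against 4.94 in the lowest Ctrl array. Means of these markers were 5.15 in Ctrl and 5.25 in CIE at 0 h and 5.14 and 5.29 at 7 d, with 0 of 5 passing; their part in the Ccl5 values was not tested.

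None of the 4 cytokine receptors passed. Il6st encodes gp130, the shared signalling chain of the IL-6 family, and was the tightest of the 32 genes. At 0 h it ran from 9.59 to 9.83 in Ctrl (median 9.74) and from 9.44 to 9.69 in CIE (median 9.60). CIE arrays were mostly lower, and the groups overlapped through the lowest Ctrl array. The change was -0.16 (SE 0.046, adjusted p 0.0371). Over 10 other settings it ran from -0.22 to -0.14, with adjusted p values of 0.0198 to 0.686.

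Il1r1, the signalling receptor of IL-1, had CIE arrays at 0 h between 6.63 and 7.01 (median 6.72) and Ctrl arrays between 6.47 and 6.63 (median 6.51). The groups met at 6.63 without overlapping before rounding, and the change was 0.25 (SE 0.0837, adjusted p 0.0839). Il1r1 and Vcam1 were the 2 of 32 genes whose groups did not overlap at 0 h (1.63% of all genes). At 8 h this held for 0 genes (2.1% of all), at 72 h for 1, Tlr3 (0.742%), and at 7 d for 0 (0.0824%). At 8 h the change of Il1r1 was 0.23 (SE 0.0917, adjusted p 0.465). Its second probeset gave -0.05 at 0 h (adjusted p 0.695) and 0.01 at 8 h (adjusted p 0.997). Osmr, the receptor of oncostatin M, and Tnfrsf1a, the main TNF receptor, had their largest of 4 changes at 8 h, 0.23 (SE 0.126) and 0.15 (SE 0.0806), and neither passed.

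None of the 5 TLR genes passed against Ctrl. Tlr7, the endosomal sensor of single-stranded RNA on the X chromosome (chrX:167303380-167330574), came closest. Its 0 h values ran from 5.71 to 6.14 in Ctrl (median 5.92) and from 6.09 to 6.58 in CIE (median 6.26). Ctrl arrays at 8 h stood at 5.64, 5.73, 5.96, 5.99 and 6.08, and CIE arrays at 6.03, 6.12, 6.23, 6.35 and 6.38. At both times CIE arrays were mostly higher and the groups overlapped by a few arrays. The change was 0.38 at 0 h (SE 0.109, adjusted p 0.0342) and 0.34 at 8 h (SE 0.119, adjusted p 0.343). Changes of 0.02 at 72 h and 0.03 at 7 d followed. Its other probesets, both dimmer, gave 0.07 and 0.11 at 0 h (adjusted p 0.763 and 0.559) and 0.14 and 0.23 at 8 h (adjusted p 0.818 and 0.442).

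Microglia are a main source of TLRs in brain, and their markers were set beside these values. The list mean over 14 measured markers at 0 h ran from 9.17 to 9.66 in Ctrl and from 8.86 to 9.25 in CIE, and 2 of 14 passed, P2ry12 and Fcrls, both lower in CIE. The part of this in the TLR values was not tested.

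Tlr2, the sensor of bacterial lipoproteins, and Tlr4, the lipopolysaccharide receptor, had changes of -0.06 and 0.09 at 0 h. Tlr3, the sensor of double-stranded RNA, and Cd14, which hands lipopolysaccharide to Tlr4, each had a change of 0.03 there. At 7 d the change of Tlr4 was 0.08 (SE 0.0667, adjusted p 1). At 72 h it was 0.16 for Tlr4 (SE 0.07, adjusted p 0.679) and 0.18 for Tlr3 (SE 0.106, adjusted p 0.732), and the Tlr3 arrays did not overlap, with Ctrl between 7.40 and 7.60 and CIE between 7.61 and 7.78. The second probeset of Tlr3 gave 0.11 (adjusted p 0.838). The 7 d change of Tlr4 was 0.05 without CIE replicate 13.

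The adaptors and kinases had small changes, and 0 of 3 passed. Myd88, the adaptor of most TLRs and of the IL-1 receptor, ranged from -0.05 to 0.08 over the 4 times. Irak1, the kinase it recruits, ranged from -0.03 to 0.08, and Traf6, the ubiquitin ligase downstream, from 0.03 to 0.05. The lowest adjusted p among the 3 genes was 0.779 at 0 h.

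Among NF-kB subunits and inhibitors 0 of 5 passed against Ctrl. The subunits Rela, Nfkb2 and Relb had changes of -0.08, 0.11 and -0.08 at 0 h, and Relb had 0.25 at 72 h (SE 0.133, adjusted p 0.71). Tnfaip3, the deubiquitinase A20 that ends the signal, had a change of -0.18 at 0 h (SE 0.079, adjusted p 0.239) and of 0.17 at 72 h (SE 0.0828, adjusted p 0.682), where its second probeset gave 0.01 (adjusted p 0.991).

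Nfkbia (chr12:55489409-55492647) encodes IkB-alpha, which holds NF-kB in the cytoplasm and is itself an NF-kB target. At 0 h it ran from 11.66 to 12.04 in Ctrl (median 11.85) and from 11.72 to 12.44 in CIE (median 12.25). The highest CIE arrays were above every Ctrl array, and the lowest CIE arrays, at 11.72 and 11.94, fell among the Ctrl arrays. The change was 0.33 (SE 0.103, adjusted p 0.0606) and the CIE level was 1.26-fold that of Ctrl. All 5 probesets of Nfkbia had positive changes at 0 h, 0.29 to 0.52, with adjusted p values of 0.0259 to 0.0961, so that none passed at 0.01.

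Nfkbia is also a known target of glucocorticoids. The 8 listed glucocorticoid response genes had an array mean of 9.17 to 9.57 in Ctrl and 9.79 to 10.57 in CIE at 0 h, and 5 of 8 passed as higher (Fkbp5, Tsc22d3, Zbtb16, Plin4 and Map3k6). List means were 9.44 in Ctrl and 10.05 in CIE at 8 h, and 9.45 and 9.37 at 72 h. In CIE mice 5 of 8 passed as lower at 72 h than at 0 h (2.15% of all genes passed) and 6 of 8 at 7 d (2.07%). The changes of the 8 genes ran from -2.40 to -0.10 at 72 h and from -2.59 to -0.18 at 7 d. Against Ctrl at 8 h 1 of 8 passed as higher (Plin4), and the change of Nfkbia was 0.22 (SE 0.112, adjusted p 0.684). The part of this list in the Nfkbia values was not tested.

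Of 6 induced targets, Vcam1 passed at 0 h. Vcam1 (chr3:116110020-116129688) is the adhesion molecule by which activated endothelium holds leukocytes. At 0 h it ran from 8.75 to 9.38 in Ctrl (median 9.07, mean 9.06 ± 0.208 SD, n = 6) and from 8.35 to 8.73 in CIE (median 8.66, mean 8.61 ± 0.135 SD, n = 6). Every CIE array was below every Ctrl array, though the closest pair nearly met. The change was -0.45 (SE 0.0971, adjusted p 0.00375), and the CIE level was 0.732-fold that of Ctrl. The second brightest probeset gave -0.47 (adjusted p 0.00135) and the third, the dimmest, -0.06 (adjusted p 0.795).

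At 8 h Vcam1 differed from Ctrl by -0.09, at 72 h by -0.13 and at 7 d by 0.01, none passing. The 7 d change exceeded that at 0 h by 0.46 (SE 0.137, adjusted p 0.114), and by 0.55 on the second brightest probeset (adjusted p 0.0237). Across the 32 genes, 0 passed such a test for 8 h (0% of all genes), 72 h (0.0824%) or 7 d (0.231%). The call at 0 h was lost without Ctrl replicate 20 (-0.39, adjusted p 0.0168), Ctrl replicate 30 (-0.44, 0.0105) or CIE replicate 5 (-0.40, 0.0208). It was lost in 4 of 10 other settings, which were the inferred hybridization sets as a block (-0.38, 0.041), a fit to which Ctrl replicate 20, in no set, adds nothing, only the 0 h arrays (-0.45, 0.0574), array weights (-0.44, 0.0188) and adjustment over the 4 times together (-0.45, 0.0132). Within 5 such sets the CIE array was the lower in 5 of 5.

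Vcam1 is best known from endothelium, so endothelial markers were set beside it. Whether other cells of the tissue carry it was not tested. The mean of 10 endothelial markers ran from 8.57 to 8.72 in Ctrl and from 8.41 to 8.64 in CIE at 0 h, with Slc2a1 passing as higher and Emcn as lower. Their part in the Vcam1 value was not tested.

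The other induced targets did not pass at any time. Icam1, another endothelial adhesion molecule, had changes of -0.12 at 0 h, 0.33 at 8 h (SE 0.14, adjusted p 0.519) and 0.15 at 7 d (SE 0.128, adjusted p 1). The last was 0.23 without Ctrl replicate 62 and 0.07 without CIE replicate 27. Lcn2, the iron-binding protein lipocalin 2 of reactive glia, had the smallest p at 8 h, with Ctrl arrays at 3.85, 3.92, 3.95, 3.98 and 4.25 and CIE arrays at 3.98, 4.12, 4.42, 4.43 and 4.54. The highest Ctrl array lay above the 2 lowest CIE arrays, and the change was 0.31 (SE 0.0883, adjusted p 0.152). Ptgs2, the inducible cyclooxygenase, had the smallest p at 72 h (0.46, SE 0.176, adjusted p 0.673), and its CIE arrays, from 5.94 to 6.68, overlapped Ctrl arrays from 5.44 to 6.11. Its second probeset gave 0.09 (adjusted p 0.874). Socs3, the feedback inhibitor of gp130 signalling, had changes of 0.02 to 0.08 over the 4 times, and Tnfaip2 of -0.10 (at 7 d, SE 0.0661, adjusted p 1) to 0.11.

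The time after vapor was compared next. In CIE mice an F test over the 4 times passed 6 of 32 genes (3.07% of all genes): Vcam1, Tnfaip2, Nfkbia, Tlr7, Il6st and Lcn2. In Ctrl mice it passed 1, Tnfaip2 (0.313% of all). Each test shares its 0 h arrays with the contrast of CIE and Ctrl at 0 h, so they are not independent of it. Whether the course differed between CIE and Ctrl was tested above as the difference of changes, and 0 of 32 genes passed.

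Vcam1 had its lowest group mean at CIE 0 h and rose afterwards. Its CIE arrays ran from 8.35 to 8.73 at 0 h, from 8.81 to 9.25 at 8 h, from 9.13 to 9.44 at 72 h and from 9.30 to 9.80 at 7 d. None of the later CIE arrays overlapped those at 0 h. Against 0 h the CIE difference was 0.40 at 8 h (adjusted p 0.0262), 0.66 at 72 h (SE 0.102, adjusted p 5.15e-05) and 0.84 at 7 d (SE 0.0971, adjusted p 1.89e-07), a 1.79-fold level at 7 d. In Ctrl mice the difference was 0.05 at 8 h, 0.35 at 72 h (adjusted p 0.31) and 0.38 at 7 d (SE 0.0971, adjusted p 0.14), none passing. Within the hybridization sets the Ctrl array at 72 h and that at 7 d were each higher than at 0 h in 5 of 5. The F test over time in Ctrl gave Vcam1 an adjusted p of 0.0552. The 72 h and 7 d differences in CIE each passed in 9 of 9 other settings and without each of their own arrays in turn. The second brightest probeset gave 0.70 at 7 d (adjusted p 2.03e-06), and the dimmest 0.09 (adjusted p 0.706). In CIE mice at 7 d against 0 h, 3 of 14 microglial and 2 of 10 endothelial markers also passed as higher. Of the endothelial markers 1 passed as lower, and 2.07% of all genes passed. The mean change was 0.30 over the microglial and 0.11 over the endothelial markers, and their part was not tested.

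Nfkbia ran the other way in CIE mice. Its mean went from 12.17 at 0 h through 12.02 and 11.68 to 11.73 at 7 d, while the 4 Ctrl means lay between 11.78 and 11.84. CIE arrays at 72 h ran from 11.52 to 11.84 and overlapped the lowest array at 0 h. Against 0 h it fell by 0.48 at 72 h (SE 0.108, adjusted p 0.00496) and by 0.43 at 7 d (SE 0.103, adjusted p 0.00919). All 5 probesets fell at 72 h, by 0.38 to 0.79, and each passed. At 7 d 4 of 5 passed. In Ctrl the brightest probeset differed by -0.06 at 72 h and -0.02 at 7 d.

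Tlr7 fell in CIE mice between 0 h and 7 d by 0.48 (SE 0.109, adjusted p 0.00646). Its CIE arrays at 7 d ran from 5.51 to 6.15 with a median of 5.76, against 6.09 to 6.58 with a median of 6.26 at 0 h. The ranges overlapped through the highest 7 d arrays. In Ctrl mice the difference was -0.13 (adjusted p 0.921), and the dimmer probesets gave -0.17 and -0.20 in CIE (adjusted p 0.32 and 0.208).

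The calls of Nfkbia and Tlr7 over time lay near the threshold. For Nfkbia at 72 h the call was lost without CIE 0 h replicate 5, 17 or 26 or CIE 72 h replicate 3, 33 or 61 (-0.43 to -0.48, adjusted p 0.0148 to 0.0245). At 7 d it was lost without any one of CIE 0 h replicates 5, 17, 26 and 43 and CIE 7 d replicates 7, 13, 27, 45 and 65 (-0.38 to -0.45, adjusted p 0.0124 to 0.0406). For Tlr7 it was lost without CIE 0 h replicate 5, 17 or 26 or CIE 7 d replicate 7, 37, 45 or 65 (-0.41 to -0.47, adjusted p 0.0145 to 0.0299). With the hybridization sets as a block the adjusted p was 0.015 for Nfkbia at 72 h, and at 7 d 0.0252 for Nfkbia and 0.0152 for Tlr7. With only the CIE arrays these were 0.0131, 0.0204 and 0.0197. Within the sets Nfkbia was lower at 7 d in 5 of 6 and Tlr7 in 6 of 6.

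Tnfaip2, a TNF-induced protein of membrane protrusions (chr12:111442450-111455018), was the one gene that passed over time in Ctrl mice. Ctrl arrays ran from 6.63 to 7.05 at 0 h, from 7.15 to 7.29 at 72 h and from 7.31 to 7.42 at 7 d, with no overlap of either later time with 0 h. The 7 d difference was 0.50 (SE 0.0661, adjusted p 1.22e-05). In CIE mice it was 0.29 (SE 0.0661, adjusted p 0.00673). The difference between CIE and Ctrl mice in this rise was -0.21 (adjusted p 0.417). The second brightest probeset of Tnfaip2 gave -0.01 in Ctrl (adjusted p 0.992) and 0.02 in CIE at 7 d. The dimmest gave 0.26 in Ctrl (adjusted p 0.787) and 0.09 in CIE (adjusted p 0.826), so the 7 d difference passed on 1 probeset. In CIE mice the call was lost without CIE 0 h replicate 5, 43 or 67 or CIE 7 d replicate 7, 27 or 65 (0.23 to 0.29, adjusted p 0.0103 to 0.0339). It was also lost with the hybridization sets as a block (0.29, adjusted p 0.0146) and with only the CIE arrays (0.29, adjusted p 0.0394).

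Single contrasts within a group passed for few of the 32. In Ctrl mice 0 genes passed at 8 h (0% of all genes), 0 at 72 h (0.0824%) and 1 at 7 d (0.121%). In CIE mice 0 passed at 8 h (0.77%), 2 at 72 h (2.15%) and 4 at 7 d (2.07%), the latter being Vcam1 and Tnfaip2 upward and Nfkbia and Tlr7 downward. Il6st and Lcn2 passed the F test without passing at a single time, Il6st with 0.21 at 8 h (adjusted p 0.0145) and Lcn2 with 0.36 at 8 h (adjusted p 0.0154).

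**Figure D3:**
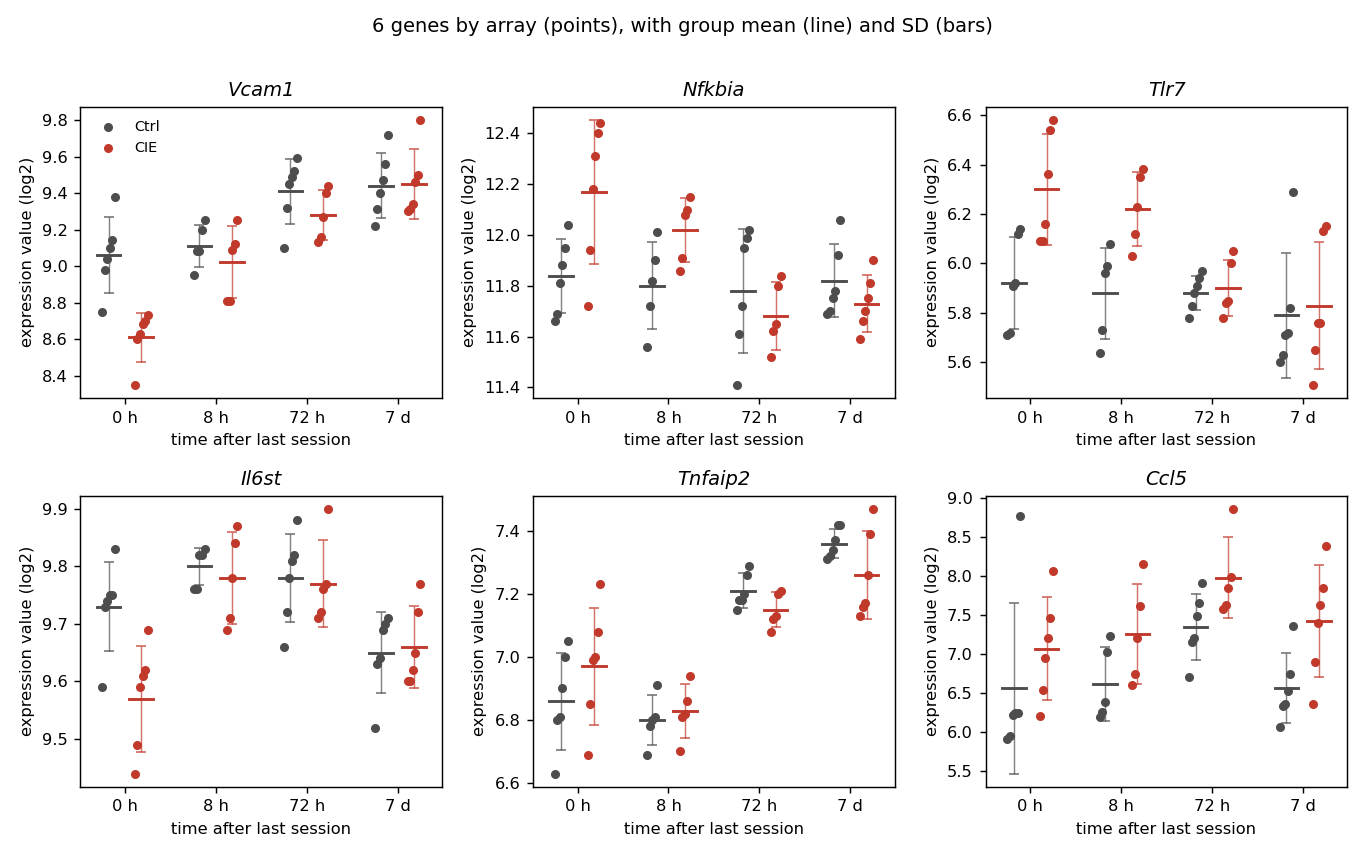
Expression value (log2, vertical axis) of 6 genes on each array (points) at 4 times, Ctrl in grey and CIE in red, with the group mean as a line and the SD as bars; the vertical axes do not start at 0. Vcam1 in CIE climbs from 8.61 at 0 h to 9.45 at 7 d, Nfkbia in CIE goes from 12.17 to 11.73, and 1 Ctrl array of Ccl5 at 0 h stands at 8.77.

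The probesets of one gene did not always move together, which bears on how far 1 value per gene can be read. Over the 66 probesets of the 32 genes, 2 passed at 0 h, both of Vcam1, and 0 passed at the later times.

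**Figure D4:**
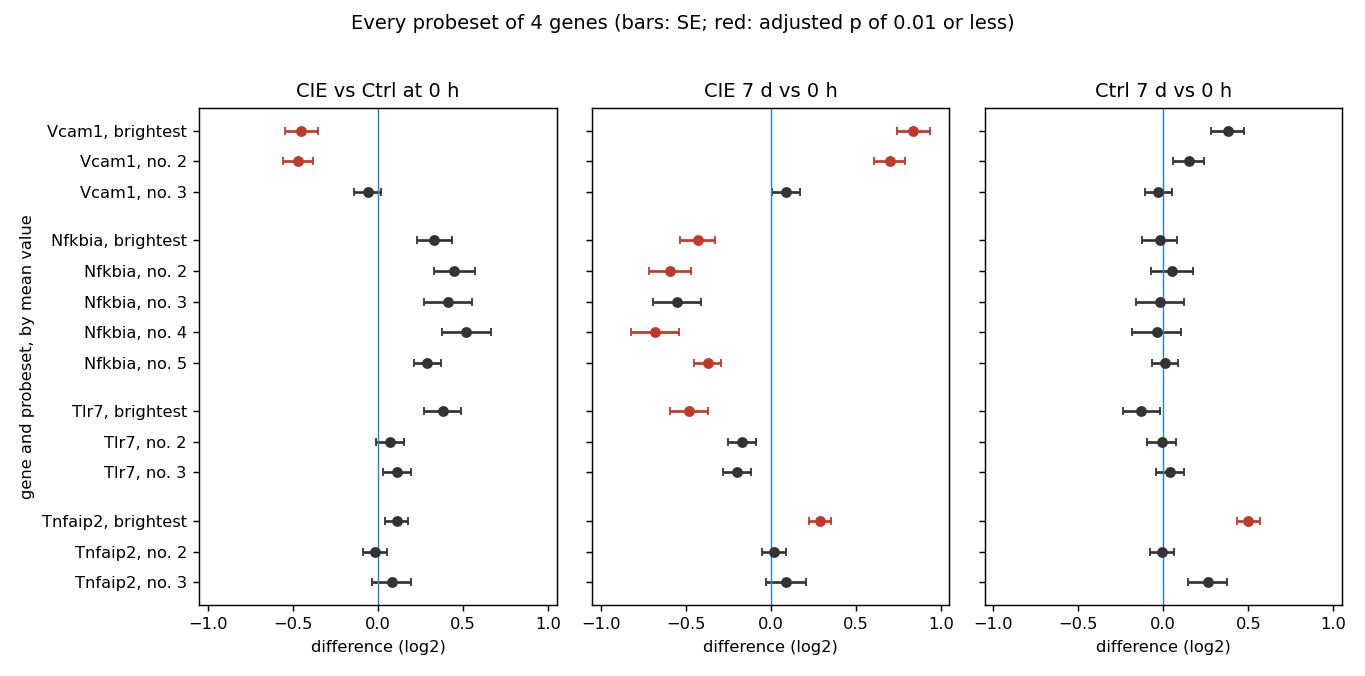
Difference on the log2 scale (horizontal axis, bars are SE) for every probeset of Vcam1, Nfkbia, Tlr7 and Tnfaip2, ordered by mean value, in CIE against Ctrl at 0 h, CIE at 7 d against 0 h, and Ctrl at 7 d against 0 h; red marks an adjusted p of 0.01 or less. The 5 probesets of Nfkbia share a direction in the first 2 panels, while Tnfaip2 passes on its brightest probeset alone.

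By group, 18 of the 32 genes (56.2%) had their highest mean in CIE mice at 8 h, where 16.9% of all genes had theirs. At 8 h 25 of 32 changes were positive, against 51.7% of all genes, yet none passed. The positive ones include the ligands Il6, Ccl2 and Ccl3, the receptors Osmr, Tnfrsf1a, Tlr2, Tlr3 and Tlr4, and the targets Icam1, Ptgs2, Lcn2 and Socs3. The 7 negative ones were Il1rn (-0.18, lower in 5 of 5 hybridization sets), Rela (-0.11), Vcam1 (-0.09), Il1b (-0.05), Tnfaip3 (-0.03), Il6st (-0.02) and Cd14 (-0.02). The mean of the 8 astrocyte markers was 10.90 in Ctrl and 11.04 in CIE at 8 h, the highest of its 8 group means, with 0 of 8 passing, and its part was not tested. This is a description of group means, in which genes share arrays, and no test was made of it.

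The other genes of the pathway were taken from a list of 71, of which 64 were measured. Against Ctrl 0 of 64 passed at any of the 4 times, beside 1.93% of all genes at 0 h and 0.0824% at 8 h. In every group 31 of 64 lay above the array median, as 61.6% of all genes did by their mean over the arrays. At 0 h the smallest p values belonged to Tollip, an inhibitor of IL-1 and TLR signalling (0.19, SE 0.0514, adjusted p 0.0278), and Ikbkg, the regulatory subunit of the IkB kinase (0.18, SE 0.0536, adjusted p 0.0458). At 8 h they belonged to the chemokine Cxcl12 (-0.35, adjusted p 0.0719) and Tlr13, a sensor of bacterial RNA (0.38, adjusted p 0.216). At 72 h they were the atypical inhibitor Nfkbiz (0.33, adjusted p 0.673) and the inflammasome sensor Nlrp3 (0.19, adjusted p 0.673), and at 7 d Ltb and Il10 (0.19 and 0.12, adjusted p 1). In CIE mice 1 of 64 passed at 72 h (2.15% of all genes) and at 7 d against 0 h (2.07%), Cxcl12, which was higher than at 0 h by 0.55 at 72 h (adjusted p 4.84e-05) and 0.38 at 7 d (adjusted p 0.00264).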

How the data were processed

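The deposited values are log2 expression values of Affymetrix mouse genome arrays. The authors made them with RMA in each hybridization batch, a second quantile normalization over all arrays, and ComBat; no software version was stated. They were used as deposited, and 0 columns of per-sample values were left out. Gene names came from the platform annotation.

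All probesets and arrays entered 1 limma fit (limma 3.58.1, R 4.3.3), with 8 group means and no covariate. The labels name no batch, so arrays sharing at least 5 equal values (tolerance 2e-08) were taken as hybridization sets, which gave 6 sets and left Ctrl 0 h replicate 20 in none. Why 3 groups hold 5 arrays is not stated.

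Members and lists were chosen with earlier results of these data known. Members that passed, and the 5 with the smallest p at each time, were described in full; of partner genes, those that passed or the 2 with the smallest p. Other settings were the set block, median centring, renewed quantile normalization, a filter on dim probesets, trend and robust variance, array weights, only the arrays compared, 1 probeset per gene, adjustment over 4 times, another threshold, the second brightest probeset and leaving out each array. On simulated data for CIE against Ctrl at 0 h over 45037 probesets, changes were placed in probesets drawn at random. The fit found 44% of changes of 0.3, 74% of 0.5 and 96% of 1, with 2 false calls.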

Additional observations from a re-analysis of the deposited data

Results flagged for a closer look

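In 128 groups of the 16 genes given in full, 5 values lay apart from the rest of their group by more than Dixon's test allows at the 95% level, and chance puts about 1 group in 20 there. Vcam1 in CIE 0 h replicate 5 read 8.35, with the other 5 arrays between 8.60 and 8.73. Ccl5 in Ctrl 0 h replicate 20 read 8.77, with the others between 5.91 and 6.24. Il6 in CIE 72 h replicate 33 read 3.89, with the others between 4.13 and 4.20. In Ctrl 7 d replicate 62 Tlr7 read 6.29 (others 5.60 to 5.82) and Icam1 5.82 (others 5.18 to 5.42). Replicate 62 was the highest of its 6 arrays in 24 of the 32 genes, the largest such count of the 45 arrays, and CIE 0 h replicate 72 was highest in 19 of 32. The cause was not tested.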

How the results depend on the processing

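The number of cytokine, TLR and NF-kB genes that passed at 0 h was 1 (Vcam1), and 0 with hybridization sets as a block, with array weights, with only the 0 h arrays and with adjustment over the 4 times together. It was 3 at an adjusted p of 0.05, and 0 to 2 when 1 array was left out, with Nfkbia added without CIE 0 h replicate 72 (0.42, adjusted p 0.00998). The F test over the 4 times went from 0 to 1 gene at an adjusted p of 0.05. The counts at 8 h, 72 h and 7 d, and of changes that differed from 0 h, were 0 under each setting that could be run for them. Over time in CIE mice the 6 genes became 2 with the set block and with CIE arrays alone, 3 with the second brightest probeset, 10 with array weights, and 2 to 7 when 1 array was left out. It was 2 without CIE 0 h replicate 5, 17 or 26 or without CIE 72 h replicate 3, and 3 without CIE 8 h replicate 1 or CIE 7 d replicate 7 or 37. Vcam1 and Tnfaip2 passed that test without each of the 45 arrays. Over time in Ctrl mice 1 gene became 0 with the second brightest probeset. Partner genes went from 0 to 1 with array weights (Cxcl12) and to 2 at an adjusted p of 0.05. Genes above the array median in all groups went from 13 to 8 with the second brightest probeset. That probeset also turned the sign of Il1r1 at 0 h (-0.05), Tnfaip2 at 7 d against Ctrl (0.01) and Tnfaip2 in Ctrl at 7 d against 0 h (-0.01). Of the other values for single genes 560 kept direction and side of the threshold, 45 kept direction but no longer passed and 1 newly passed. The cause was not tested. Replicate numbers name single mice and none is shared between groups, so arrays were paired through the inferred hybridization sets, as the block and the comparisons within sets. For CIE against Ctrl at 0 h, with 6 arrays per group, changes of 0.3 were found in 44% of simulated cases. Those cases were probesets drawn at random from the whole array. The within-group SD of these genes had a median of 0.165, against 0.127 over all genes. The 44% is therefore not the share to be found for these genes, and the later times were not simulated. Signal below the array median bounds most of the ligands.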
